A study of Homo sapiens with 6 samples.

Results

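The genes described here are 42 nucleolar ribosome biogenesis factors, of 30735 genes in the deposited table, chosen by symbol from general knowledge of the pathway. Earlier results of these data were known when these genes and the lists of other genes below were chosen. The 42 were sorted by role into 4 RNA polymerase I transcription genes, 8 snoRNP genes, 12 small subunit genes, 14 large subunit genes and 4 nucleolar scaffold genes. All 42 were found, and 41 reached the level needed for testing. The levels are FPKM, read counts scaled to gene length and library size, from polyadenylated RNA of SET-2 cells. SET-2 is a human line grown from a megakaryoblastic leukaemia, has a mutant JAK2 and serves as a model of myeloproliferative neoplasms. 3 libraries came from cells given CPL and 3 from cells given placebo, called control here; both groups are the same cell line. The identity of CPL, its dose and the treatment time are not stated in the labels, nor is it stated whether replicates were separate cultures, so the p-values measure only the spread between these samples. The comparison asks how transcript levels in CPL-treated cells differ from those in control cells.

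The ribosome is assembled in the nucleolus, where RNA polymerase I transcribes the long ribosomal RNA precursor. Small nucleolar ribonucleoproteins (snoRNPs) then guide its methylation and pseudouridylation, and large protein assemblies fold, cut and package it into the precursors of the small and the large subunit. In haematopoietic and leukaemic cells this work is tied to growth, and the transcription factor MYC is known to act on many of these genes through the E-box motif CACGTG.

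Depth was 15482093 to 16175175 reads per library in CPL and 14647900 to 18239568 reads in control, so that 3 reads over 1 kilobase of exon equal 0.165 to 0.205 FPKM. Megakaryocyte markers fitted the labelled line. Of 14 listed, 12 were found (not GP1BB or PF4), and 11 averaged at least 1 FPKM, while VWF lay under 0.1 FPKM in all libraries. The summed megakaryocyte markers spanned 561 to 799 FPKM in CPL and 549.6 to 603 FPKM in control. Of 9 erythroid markers, 8 also averaged at least 1 FPKM. Summed erythroid markers spanned 629 to 1730 FPKM in CPL and 685 to 786 FPKM in control. The highest sum was that of CPL replicate 1, where HBG2 had 650.2 FPKM and HBA1 553.2 FPKM. The part of these markers in the results was not tested. At least 1 FPKM on average was also reached by 1 of 6 monocyte markers, 3 of 6 lymphocyte markers (CD79A, NKG7 and GNLY) and 3 of 8 stromal and epithelial markers (KRT18, PECAM1 and CDH5), while CD3E, COL1A1, COL1A2 and EPCAM were under 0.1 FPKM in every library. The summed lymphocyte markers spanned 30.9 to 42.8 FPKM in CPL and 31.9 to 34.6 FPKM in control, and the summed stromal and epithelial markers 45.9 to 50.6 FPKM in CPL and 46.4 to 48.2 FPKM in control. CPL replicate 1 stood apart. Its deviation from the mean of the 6 libraries rose with the GC content of the gene, with a rank correlation of 0.748 across genes, against -0.005 and -0.481 in CPL replicates 2 and 3 and between -0.522 and -0.116 in the control libraries. Counts and changes are therefore given on the values as deposited and after a smooth GC trend was removed from each library.

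The E-box stands in the promoters of many of the members. Promoter windows of 300 bases, 250 before and 50 after the start site, were matched in RefSeq (GRCh38.p14) for 35 of the 42 members, and 16 of these 35 members held CACGTG, which reads the same on both strands, in a window (45.7%). Among all 27305 genes with a window the share was 8.77%, among the tested genes it was 12.7%, among 117 other ribosome biogenesis genes it was 26.5%, or 31 genes, and among the cytosolic ribosomal proteins it was 6.45%, or 4 of 62. By role, the motif was found for 0 of 3 RNA polymerase I members, 3 of 6 snoRNP members, 6 of 11 small subunit members, 5 of 11 large subunit members and 2 of 4 nucleolar scaffold members. Of the 17 occurrences in members, 16 began within 50 bases of the start site. Windows of 30 bases around the motif are printed for the 5 members that both held it and were called lower in CPL in all 6 GC-corrected fits that each left out 1 library. They lie at chr4:109815781-109815810 on the plus strand (GAR1), chr12:101280083-101280112 on the plus strand (UTP20), chr6:143843354-143843383 on the plus strand (LTV1), chr3:52686026-52686055 on the plus strand (GNL3) and chr17:4555340-4555369 on the minus strand (MYBBP1A). Each is written along its gene's strand with the E-box in capitals.
GAR1: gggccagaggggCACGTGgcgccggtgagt
UTP20: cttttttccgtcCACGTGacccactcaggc
LTV1: gtcctggggctgCACGTGtggtgaggccta
GNL3: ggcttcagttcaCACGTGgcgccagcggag
MYBBP1A: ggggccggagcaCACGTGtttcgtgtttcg
The motif begins 10 bases before the start site in UTP20, and at positions 31, 28, 6 and 27 from it in GAR1, LTV1, GNL3 and MYBBP1A, counting the start site as 0. The sequence upstream of UTP20 (chr12:101279855-101280104, plus strand) holds the motif near its end and no other copy.
UTP20 upstream: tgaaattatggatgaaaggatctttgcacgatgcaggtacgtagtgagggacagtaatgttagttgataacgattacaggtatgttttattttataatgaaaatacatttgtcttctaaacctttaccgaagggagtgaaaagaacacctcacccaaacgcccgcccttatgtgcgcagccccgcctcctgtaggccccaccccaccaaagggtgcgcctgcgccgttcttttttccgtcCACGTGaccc
The 15 tested members with it had a median log2 change of -0.38 (-0.41 with the GC trend removed, 12 called lower), and the 19 matched and tested members without it had -0.35 (-0.32 with the GC trend removed, 8 called lower). With the GC trend removed 7.13% of all tested genes were called lower. That share was not counted apart for all genes with and without the motif. The difference between the 2 sets of members was not tested, and the windows say nothing about binding in these cells.

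As a group the members lay lower in CPL than in control cells. All 41 tested members had a log2 change below 0, from -0.76 to -0.01, where 50.8% of all 13092 tested genes were below 0. Their median was -0.31, against -0.01 over all genes. In 29 members every CPL library lay below every control library, a pattern seen in 14.9% of all tested genes, and in no member did every CPL library lie above. Few of these changes passed the test across all genes (limma, Benjamini-Hochberg adjusted p under 0.05). UTP20 and GAR1 were called lower, that is 2 of 41, where 0.665% of all tested genes were called lower. None was called higher, where 1.09% of all genes were, and 24 members, all of them lower, had an unadjusted p under 0.05, where 19.5% of all genes did in either direction and 10% did with a lower level. With the GC trend removed the share of all genes at an unadjusted p under 0.05 was 31.7%. With the GC trend removed, 25 of the 41 members (61.0%) were called lower, where 7.13% of all tested genes were, and 0 were called higher, where 7.6% of all genes were. The median was then -0.35 and the range -0.66 to -0.09, and in 38 members the CPL libraries all lay under the controls, against 18.6% of all genes. Without CPL replicate 1 and with no GC correction, 12 members were called lower, where 2.59% of all genes were, and all 12 were among the 25. In bulk RNA, fewer cells of a type and less RNA per cell cannot be told apart.

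**Figure D1:**
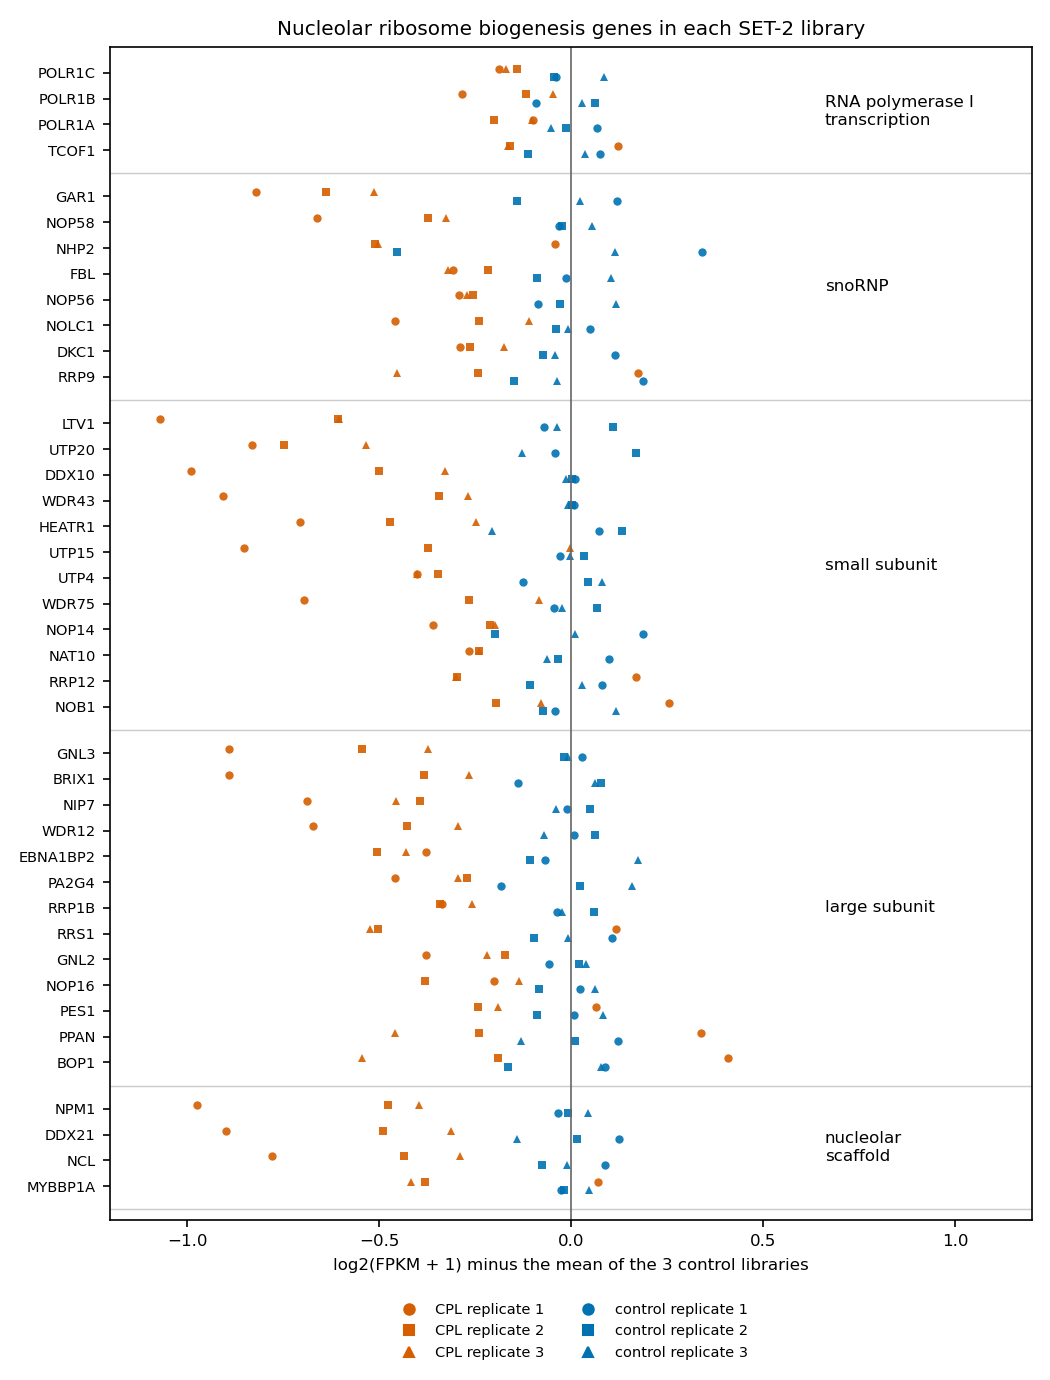
log2(FPKM + 1) of each of the 41 tested members in each library, less the mean of the 3 control libraries, with CPL in orange and control in blue and members grouped by role. Most CPL points lie left of the control points, and CPL replicate 1 (orange circles) is spread most widely, reaching from -1.07 for LTV1 to 0.41 for BOP1.

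The position of CPL replicate 1 among the CPL libraries followed the GC content of the gene. In that library the change of a member correlated with its GC content at r = 0.921 over the 41 members, a description across genes that share the library, against 0.438 in CPL replicate 2 and -0.165 in CPL replicate 3. The 14 members under 45% GC had a median log2 difference from the control mean of -0.87 in CPL replicate 1, -0.45 in CPL replicate 2 and -0.30 in CPL replicate 3. For the 11 members of at least 55% GC the same medians were 0.12, -0.24 and -0.42. CPL replicates 2 and 3 thus placed both GC-poor and GC-rich members below control, and all 41 members were under the control mean in each of them, while CPL replicate 1 placed 32 under it. After the GC correction, the medians over all members were -0.39, -0.33 and -0.30 in CPL replicates 1, 2 and 3, and 40, 41 and 41 members were under the control mean. The correlation with GC in CPL replicate 1 was then 0.427, so the correction did not take out all of it among the members. What gave that library its GC trend was not tested.

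**Figure D2:**
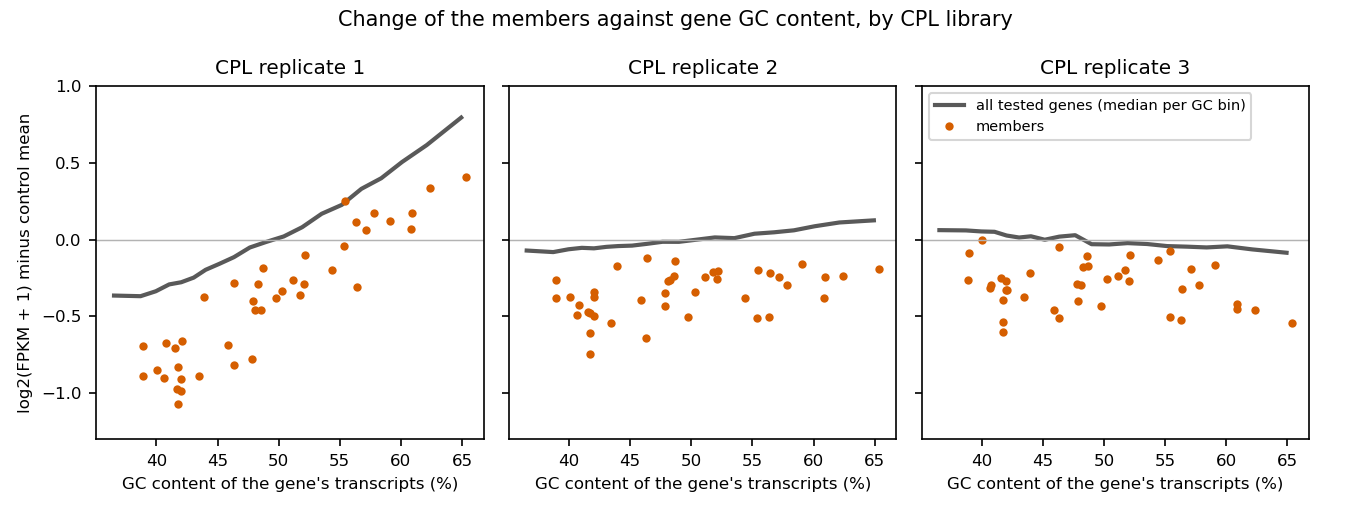
Difference of each of the 41 tested members from the control mean, log2(FPKM + 1), against the GC content of its transcripts in percent, in 1 panel per CPL library, with the median of all tested genes per GC bin as a line. Most members lie below the line of all genes, and in CPL replicate 1 both the line and the members rise with GC.

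RNA polymerase I transcription genes had the median nearest to 0 of the 5 roles. POLR1A and POLR1B encode the largest and second-largest subunits of the enzyme, POLR1C a subunit it shares with RNA polymerase III, and TCOF1 the nucleolar phosphoprotein treacle, which helps to recruit the enzyme. None of the 4 was called, as deposited or with the GC trend removed. As deposited 0 had an unadjusted p under 0.05, where 19.5% of all genes did. With the GC trend removed 2 of the 4 did, where 31.7% of all genes did. The 4 had a median log2 change of -0.14, and -0.16 with the GC trend removed. The range was -0.17 to -0.07, and -0.22 to -0.11 with the GC trend removed. POLR1B (ENSG00000125630, chromosome 2, 112541915 to 112577150, plus strand of GRCh38), the member of this class with the highest mean level, had 12.9, 14.7 and 15.4 FPKM in CPL replicates 1, 2 and 3, against 14.9, 16.7 and 16.3 FPKM in control replicates 1, 2 and 3. The groups overlapped. The log2 change of POLR1B was -0.15 ± 0.11 (SE, limma adjusted p = 0.469), and -0.11 ± 0.07 with the GC trend removed (limma adjusted p = 0.312). POLR1C was at 3.99 to 4.16 FPKM in CPL and 4.51 to 5.03 FPKM in control, with no overlap but no call (limma adjusted p = 0.404, and 0.21 with the GC trend removed).

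The snoRNP genes lay lower, with GAR1 the lowest. GAR1, DKC1 and NHP2 encode proteins of the box H/ACA particles that guide pseudouridylation, with DKC1 the pseudouridine synthase. FBL, the methyltransferase fibrillarin, and its partners NOP56 and NOP58 belong to the box C/D particles that guide methylation, RRP9 binds the U3 snoRNA, and NOLC1 is a chaperone of both kinds of particle. As deposited, 1 of the 8 (GAR1) was called lower, where 0.665% of all genes were. With the GC trend removed GAR1, NOP58, NOP56 and RRP9 were called lower (50%), where 7.13% of all genes were. The median log2 change was -0.28 as deposited and -0.36 with the GC trend removed.

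GAR1 (ENSG00000109534, chromosome 4, 109815510 to 109824740, plus strand) had 24.6, 28.0 and 30.6 FPKM in CPL replicates 1, 2 and 3, against 48.0, 39.9 and 44.9 FPKM in control replicates 1, 2 and 3. Every CPL library was below every control library, and 778 to 1007 reads in CPL and 1439 to 1556 reads in control lay behind these values. The mean was 27.7 ± 3.05 FPKM in CPL and 44.3 ± 4.09 FPKM in control (SD, n = 3 each), 37.4% lower. The log2 change was -0.66 ± 0.12 (SE, limma adjusted p = 0.0465), and -0.62 ± 0.08 with the GC trend removed (limma adjusted p = 0.0053). As deposited, the call was lost without CPL replicate 2, control replicate 1, control replicate 2 or control replicate 3 in turn, with adjusted p up to 0.198. On GC-corrected values it held in all 6 such fits, with adjusted p up to 0.0262.

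NOP58 (ENSG00000055044, chromosome 2, 202265716 to 202303666, plus strand) had 50.4, 61.8 and 63.9 FPKM in CPL replicates 1, 2 and 3, against 78.7, 79.1 and 83.5 FPKM in the control replicates. The groups did not overlap, with CPL replicate 1 the lowest. Its log2 change was -0.45 ± 0.11 (SE, limma adjusted p = 0.1) as deposited, -0.35 ± 0.06 with the GC trend removed (limma adjusted p = 0.0138), and it was called lower without CPL replicate 1 (adjusted p = 0.039). NOP56 (ENSG00000101361, chromosome 20, 2652145 to 2658393, plus strand), its paralogue, had 51.4, 52.7 and 52.1 FPKM in the CPL replicates, against 59.4, 61.8 and 68.5 FPKM in the control replicates. The CPL libraries were close to one another and all below control, a difference of 17.7%. The log2 change of NOP56 was -0.27 ± 0.09 (SE, limma adjusted p = 0.178), and -0.30 ± 0.08 with the GC trend removed (limma adjusted p = 0.0438).

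FBL (ENSG00000105202, chromosome 19, 39834458 to 39846414, minus strand) was the snoRNP member with the highest mean level, at 119.0, 126.9 and 117.9 FPKM in the CPL replicates and 146.2, 138.7 and 158.6 FPKM in the control replicates. The groups did not overlap, yet FBL missed the threshold both as deposited (log2 change -0.28 ± 0.10, limma adjusted p = 0.172) and with the GC trend removed (-0.38 ± 0.10, adjusted p = 0.051). RRP9 (ENSG00000114767, chromosome 3, 51933430 to 51941941, minus strand) had 33.3, 24.7 and 21.2 FPKM in the CPL replicates, against 33.6, 26.4 and 28.6 FPKM in the control replicates. CPL replicate 1 lay among the controls, and this gene has a GC content of 60.9%. Its log2 change was -0.17 ± 0.17 as deposited (limma adjusted p = 0.613) and -0.37 ± 0.07 with the GC trend removed (limma adjusted p = 0.0184). DKC1, NHP2 and NOLC1 had log2 changes of -0.24, -0.35 and -0.27 as deposited and of -0.22, -0.43 and -0.25 with the GC trend removed, and were not called in either fit. NHP2 was at 15.0 to 21.2 FPKM in CPL and 15.7 to 27.9 FPKM in control.

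Small subunit genes held the largest single differences. UTP20, HEATR1, UTP4, UTP15, WDR43 and WDR75 are parts of the small subunit processome, the assembly that forms on the young precursor. NOP14 and DDX10, an RNA helicase, act with it, NAT10 acetylates small subunit ribosomal RNA, and RRP12, LTV1 and the endonuclease NOB1 act late, in export and final cutting. As deposited 1 of the 12 (UTP20) was called lower and 11 were not called, where 0.665% of all genes were called lower. At an unadjusted p under 0.05 were 7 of the 12, where 19.5% of all genes were. After removal of the GC trend 8 of the 12 were called lower, where 7.13% of all genes were. The median log2 change of the 12 was then -0.32, against -0.40 as deposited.

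UTP20 (ENSG00000120800, chromosome 12, 101280109 to 101386616, plus strand) had 4.90, 5.24 and 6.24 FPKM in CPL replicates 1, 2 and 3, against 9.19, 10.8 and 8.61 FPKM in control replicates 1, 2 and 3. The groups were well apart, on 760 to 1005 reads in CPL and 1350 to 1972 reads in control. The mean was 5.46 ± 0.698 FPKM in CPL and 9.53 ± 1.13 FPKM in control (SD, n = 3 each), 42.7% lower. The log2 change was -0.70 ± 0.13 (SE, limma adjusted p = 0.0462), and -0.60 ± 0.08 with the GC trend removed (limma adjusted p = 0.00495). As with GAR1, the call as deposited was lost without CPL replicate 2 or any 1 of the control replicates (adjusted p of at most 0.183), while the GC-corrected call held in all 6 fits that left out a library.

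LTV1 (ENSG00000135521, chromosome 6, 143843344 to 143863812, plus strand) had 13.7, 19.3 and 19.4 FPKM in the CPL replicates, against 28.5, 32.3 and 29.1 FPKM in the control replicates. The mean was 17.5 ± 3.24 FPKM in CPL and 30.0 ± 2.07 FPKM in control (SD, n = 3 each), 41.8% lower, and the groups were far apart. With a log2 change of -0.76 ± 0.15, the lowest of the members, LTV1 just missed the threshold as deposited (limma adjusted p = 0.0532) and was called lower without CPL replicate 1 (adjusted p = 0.0128) and with the GC trend removed (-0.66 ± 0.08, adjusted p = 0.00319). In the annotation 34.8% of the exon bases of LTV1 are shared with other genes on the same strand, so reads could be divided between them.

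DDX10 (ENSG00000178105, chromosome 11, 108665025 to 108940930, plus strand) had 6.40, 9.38 and 10.7 FPKM in the CPL replicates, against 13.8, 13.7 and 13.6 FPKM in the control replicates. The control libraries were nearly equal and all CPL libraries lay below them, CPL replicate 1 farthest. Its log2 change was -0.61 ± 0.17 (limma adjusted p = 0.120) as deposited and -0.51 ± 0.09 with the GC trend removed (limma adjusted p = 0.0148). UTP4 (ENSG00000141076, chromosome 16, 69131291 to 69231130, plus strand) had 20.7, 21.6 and 20.8 FPKM in the CPL replicates, against 25.3, 28.6 and 29.4 FPKM in the control replicates. The CPL libraries were almost level with one another, and UTP4 was 24.3% lower on average (log2 change -0.38 ± 0.10, limma adjusted p = 0.101; with the GC trend removed -0.36 ± 0.07, adjusted p = 0.0213). NAT10 (ENSG00000135372, chromosome 11, 34105602 to 34147670, plus strand), the class member with the highest mean level, had 35.0, 35.6 and 35.7 FPKM in the CPL replicates, against 45.3, 41.3 and 40.4 FPKM in the control replicates. NAT10 was 16.3% lower, with no overlap (log2 change -0.25 ± 0.09, limma adjusted p = 0.199; with the GC trend removed -0.26 ± 0.06, adjusted p = 0.0294).

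WDR43, HEATR1 and RRP12 were also called lower with the GC trend removed, with log2 changes of -0.41, -0.37 and -0.27 (-0.51, -0.48 and -0.14 as deposited), and WDR75, UTP15, NOP14 and NOB1 were not called. NOB1, named after its values were seen, was the member nearest to no difference. It had 31.2, 22.5 and 24.5 FPKM in the CPL replicates, against 25.2, 24.6 and 28.2 FPKM in the control replicates. The groups overlapped, and the log2 change was -0.01 ± 0.14 as deposited and -0.09 ± 0.08 with the GC trend removed (limma adjusted p = 0.985 and 0.515).

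**Figure D3:**
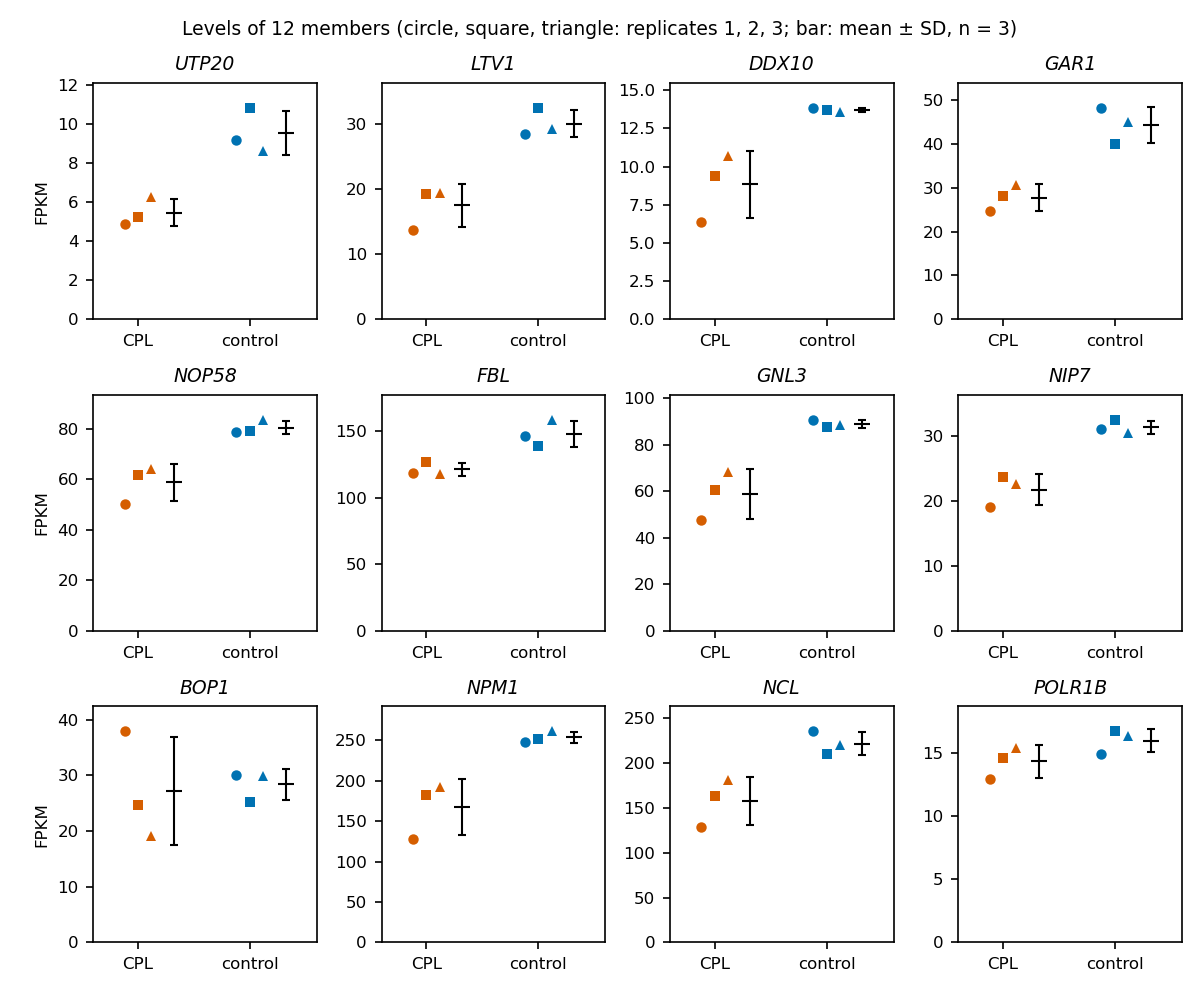
FPKM of 12 members in CPL (orange, left) and control (blue, right), with circles, squares and triangles for replicates 1, 2 and 3 and the mean ± SD (n = 3) as a bar, each axis starting at 0. The CPL points lie below the control points in every panel but BOP1 and POLR1B.

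Large subunit genes lay lower, with no call as deposited. PES1, BOP1 and WDR12 form the PeBoW complex. GNL2 and GNL3 (nucleostemin) are nucleolar GTPases, and RRS1, BRIX1, PPAN, EBNA1BP2, NIP7, NOP16, NOP2 and RRP1B are assembly or processing factors. PA2G4 is a growth-linked protein found on pre-ribosomes. As deposited 0 of 13 tested members were called, and the median log2 change was -0.31. At an unadjusted p under 0.05 were 8 of the 13, where 19.5% of all genes were. On GC-corrected values 9 of 13 were called lower, where 7.13% of all genes were, and the median of the 13 was -0.35. In all 13 the GC-corrected CPL libraries lay below the controls without overlap, against 18.6% of all genes.

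NIP7 (ENSG00000132603, chromosome 16, 69339430 to 69343111, plus strand) had 19.1, 23.6 and 22.6 FPKM in CPL replicates 1, 2 and 3, against 31.1, 32.5 and 30.5 FPKM in the control replicates. The groups were well apart, and the mean was 21.8 ± 2.38 FPKM in CPL and 31.3 ± 1.03 FPKM in control (SD, n = 3 each), 30.6% lower. NIP7 had a log2 change of -0.51 ± 0.11 (limma adjusted p = 0.0645) as deposited and -0.46 ± 0.06 with the GC trend removed (limma adjusted p = 0.00533). GNL3 (ENSG00000163938, chromosome 3, 52681156 to 52694492, plus strand) had 47.5, 60.5 and 68.4 FPKM in the CPL replicates, against 90.6, 87.6 and 88.3 FPKM in the control replicates. Control libraries were close together, all CPL libraries were below them, and GNL3 was 33.8% lower (log2 change -0.60 ± 0.14, limma adjusted p = 0.0796; with the GC trend removed -0.52 ± 0.08, adjusted p = 0.00767).

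EBNA1BP2 (ENSG00000117395, chromosome 1, 43164175 to 43270936, minus strand) had 24.4, 22.3 and 23.5 FPKM in the CPL replicates, against 30.5, 29.7 and 36.3 FPKM in the control replicates. CPL replicate 1 lay with the other CPL libraries, all below control, at a GC content of 49.7%. Its log2 change was -0.44 ± 0.11 (limma adjusted p = 0.0969), and -0.43 ± 0.09 with the GC trend removed (limma adjusted p = 0.0195). WDR12 (ENSG00000138442, chromosome 2, 202874782 to 203014798, minus strand) had 7.90, 9.54 and 10.6 FPKM in the CPL replicates, against 13.3, 13.8 and 12.5 FPKM in the control replicates. All CPL libraries of WDR12 were below control, 29.2% on average (log2 change -0.46 ± 0.12, limma adjusted p = 0.108; with the GC trend removed -0.35 ± 0.05, adjusted p = 0.00633). RRP1B (ENSG00000160208, chromosome 21, 43659548 to 43696079, plus strand), the large subunit member with the highest mean level, had 95.7, 95.4 and 101.1 FPKM in the CPL replicates, against 118.1, 126.3 and 119.1 FPKM in the control replicates. The libraries within a group were close, and RRP1B was 19.6% lower with no overlap (log2 change -0.31 ± 0.09, limma adjusted p = 0.120; with the GC trend removed -0.31 ± 0.07, adjusted p = 0.0227).

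BOP1, named after its values were seen, had the largest gap of the tested members between CPL replicates 1 and 3 in log2(FPKM + 1). It has the highest GC content of the members, 65.3%, and had 37.9, 24.7 and 19.1 FPKM in CPL replicates 1, 2 and 3, against 30.1, 25.1 and 29.9 FPKM in the control replicates. CPL replicate 1 was the highest of the 6 libraries and CPL replicate 3 the lowest. As deposited the log2 change of BOP1 was -0.11 ± 0.23 (limma adjusted p = 0.826), while with the GC trend removed it was -0.39 ± 0.06 (limma adjusted p = 0.00987), a call that held in all 6 fits that left out a library. RRS1, PES1 and BRIX1 were also called lower with the GC trend removed, with log2 changes of -0.40, -0.24 and -0.38 (-0.30, -0.12 and -0.51 as deposited), and NOP16, GNL2, PPAN and PA2G4 were not. For PPAN, 59.8% of exon bases are shared with other genes on the same strand, PPAN-P2RY11 among them. NOP2 was not tested, because its level was 0.396 to 0.620 FPKM in CPL and 0.453 to 0.714 FPKM in control, on 30 to 45 reads in CPL and 36 to 49 reads in control. For this gene 54.4% of the exon bases are shared with an overlapping gene on the same strand.

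Nucleolar scaffold genes had the lowest median of the 5 roles and include NPM1 and NCL, the members with the highest mean levels. NPM1 (nucleophosmin) and NCL (nucleolin) are the main phosphoproteins of the nucleolus, DDX21 is an RNA helicase that links RNA polymerase I transcription to processing, and MYBBP1A is a nucleolar repressor of transcription. As deposited none of the 4 was called, and the median log2 change was -0.54. At an unadjusted p under 0.05 were 3 of the 4, where 19.5% of all genes were. With the GC trend removed all 4 were called lower, where 7.13% of all genes were, and the median of the 4 was -0.46.

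NPM1 (ENSG00000181163, chromosome 5, 171387116 to 171411137, plus strand) had 128.4, 181.9 and 192.3 FPKM in CPL replicates 1, 2 and 3, against 247.3, 252.0 and 261.1 FPKM in the control replicates. Every CPL library was below every control library, with CPL replicate 1 far lower than the other CPL libraries. The mean was 167.5 ± 34.3 FPKM in CPL and 253.5 ± 7.04 FPKM in control (SD, n = 3 each), 33.9% lower, with a log2 change of -0.62 ± 0.16 (limma adjusted p = 0.101) as deposited and -0.51 ± 0.09 with the GC trend removed (limma adjusted p = 0.0136). Since 45 annotated pseudogenes are named after NPM1, its short reads may in part have been counted elsewhere. NCL (ENSG00000115053, chromosome 2, 231453531 to 231483641, minus strand) had 128.6, 163.4 and 181.0 FPKM in the CPL replicates, against 235.4, 210.1 and 219.6 FPKM in the control replicates. The groups did not overlap (log2 change -0.50 ± 0.14, limma adjusted p = 0.119; with the GC trend removed -0.48 ± 0.11, adjusted p = 0.0318).

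DDX21 (ENSG00000165732, chromosome 10, 68956128 to 68985073, plus strand) had 68.1, 90.7 and 102.7 FPKM in the CPL replicates, against 139.5, 129.2 and 116.0 FPKM in the control replicates. All CPL libraries were below control, at a mean of 87.2 ± 17.6 FPKM in CPL and 128.2 ± 11.8 FPKM in control (SD, n = 3 each; log2 change -0.57 ± 0.16, limma adjusted p = 0.123; with the GC trend removed -0.45 ± 0.08, adjusted p = 0.0147). MYBBP1A (ENSG00000132382, chromosome 17, 4538897 to 4555631, minus strand) had 26.4, 19.1 and 18.6 FPKM in the CPL replicates, against 24.6, 24.8 and 25.9 FPKM in the control replicates. CPL replicate 1 was the highest library, the other CPL libraries the lowest, and the GC content was 60.9%. MYBBP1A was not called as deposited (log2 change -0.24 ± 0.14, limma adjusted p = 0.395), but was called lower without CPL replicate 1 (adjusted p = 0.0262) and with the GC trend removed (-0.43 ± 0.06, adjusted p = 0.00584).

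The 9 members called lower in all 6 GC-corrected fits that each left out 1 library were NOP58, GAR1, UTP20, LTV1, BOP1, WDR12, GNL3, NIP7 and MYBBP1A. Each of these fits called 411 to 586 of the 13092 tested genes lower. How many of all genes were called lower in all 6 was not counted. The 9 members come from 4 of the 5 roles. None is from RNA polymerase I transcription, where no member was called with all libraries in either. Of the other members called on GC-corrected values, each missed the threshold in 1 or more of the 6 fits, and NAT10 in all 6.

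Other genes of the same pathway lay lower by a smaller amount. In 5 further lists by role, 140 of 141 genes were tested and had a median log2 change of -0.21 (-0.20 with the GC trend removed). As deposited 1 was called lower (0.714%) and 0 higher, where 0.665% and 1.09% of all tested genes were. At an unadjusted p under 0.05 were 46 of the 140, where 19.5% of all genes were. With the GC trend removed 37 (26.4%) were called lower and 1 higher, where 7.13% and 7.6% of all genes were. The gene called as deposited was LYAR, a nucleolar protein of large subunit assembly, at 21.3, 22.4 and 23.0 FPKM in CPL replicates 1, 2 and 3, against 32.5, 31.8 and 34.3 FPKM in the control replicates. LYAR had a mean of 22.2 ± 0.867 FPKM in CPL and 32.9 ± 1.31 FPKM in control (SD, n = 3 each), with no overlap (log2 change -0.54 ± 0.09, limma adjusted p = 0.0367; with the GC trend removed -0.45 ± 0.07, adjusted p = 0.00951). As deposited its adjusted p was between 0.0147 and 0.186 with each library left out in turn, and only the fit without CPL replicate 1, of those 6, called it.

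With the GC trend removed, 14 of 44 other small subunit genes (31.8%) and 15 of 52 other large subunit genes (28.85%) were called lower. So were 4 of 11 other snoRNP genes (36.4%), where 7.13% of all tested genes were. The shares were nearer to that of all genes for the other RNA polymerase I list (11.8%) and the trimming and exosome list (12.5%). IMP3, a U3 snoRNP protein, ESF1 and NOL10 were among the small subunit calls, with log2 changes of -0.61, -0.45 and -0.34 (-0.48, -0.59 and -0.43 as deposited). RRP15, RPF2 and DDX18 were among the large subunit calls, with -0.55, -0.42 and -0.34 (-0.69, -0.54 and -0.46 as deposited), and RRP15 was at 3.26 to 4.88 FPKM in CPL and 6.99 to 7.79 FPKM in control. The box C/D assembly factor ZNHIT6, at 3.88 to 5.51 FPKM in CPL and 6.93 to 7.48 FPKM in control, led the snoRNP calls (log2 change -0.36, limma adjusted p = 0.0123, and -0.49 with adjusted p = 0.12 as deposited).

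The cytosolic ribosomal proteins, the building blocks these factors assemble, had a median nearer to 0 than the members, though by little in CPL replicate 3. Of 78 tested, 0 were called as deposited, with 12 at an unadjusted p under 0.05, a smaller share than the 19.5% of all genes. With the GC trend removed 2 were called lower (2.56%), a smaller share than the 7.13% of all tested genes. These were RPLP2 and RPL38, called in 4 and 0 of the 6 GC-corrected fits that left out a library. The median log2 change of the 78 was -0.11 as deposited and -0.12 with the GC trend removed. In CPL replicates 1, 2 and 3 the median was 0.04, -0.086 and -0.272 as deposited, against -0.377, -0.344 and -0.294 for the members. With the GC trend removed it was -0.013, -0.085 and -0.266, against -0.385, -0.333 and -0.297. Every CPL library lay below every control library in 20 of the 78, where 14.9% of all genes did so. Without CPL replicate 1, 75 of the 78 had a change below 0, where 6738 of 13092 tested genes did. Whether the lists differ was not tested.

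Of 8 regulators of the pathway 6 were tested, and 5 of these, MYC among them, were not called in either fit. MXD1 was called higher as deposited and with the GC trend removed, where 1.09% and 7.6% of all tested genes were. In these fits 0 regulators were called lower, where 0.665% and 7.13% of all tested genes were. MYC had 232.0, 186.5 and 157.0 FPKM in the CPL replicates, against 133.4, 150.2 and 163.2 FPKM in the control replicates, with overlap and no call (limma adjusted p = 0.272, and 0.152 with the GC trend removed). MXD1, a repressor that competes with MYC for the partner MAX, had 13.8, 13.9 and 14.4 FPKM in the CPL replicates, against 5.68, 6.56 and 6.21 FPKM in the control replicates. All CPL libraries of MXD1 were above control, 2.29-fold on average (limma adjusted p = 0.00522, and 5.08e-04 with the GC trend removed). As deposited the MXD1 call was lost only without control replicate 1 (limma adjusted p = 0.0523) among the 6 fits that left out a library. Whether MYC or MXD1 has a part in the levels of the members was not tested.

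**Figure D4:**
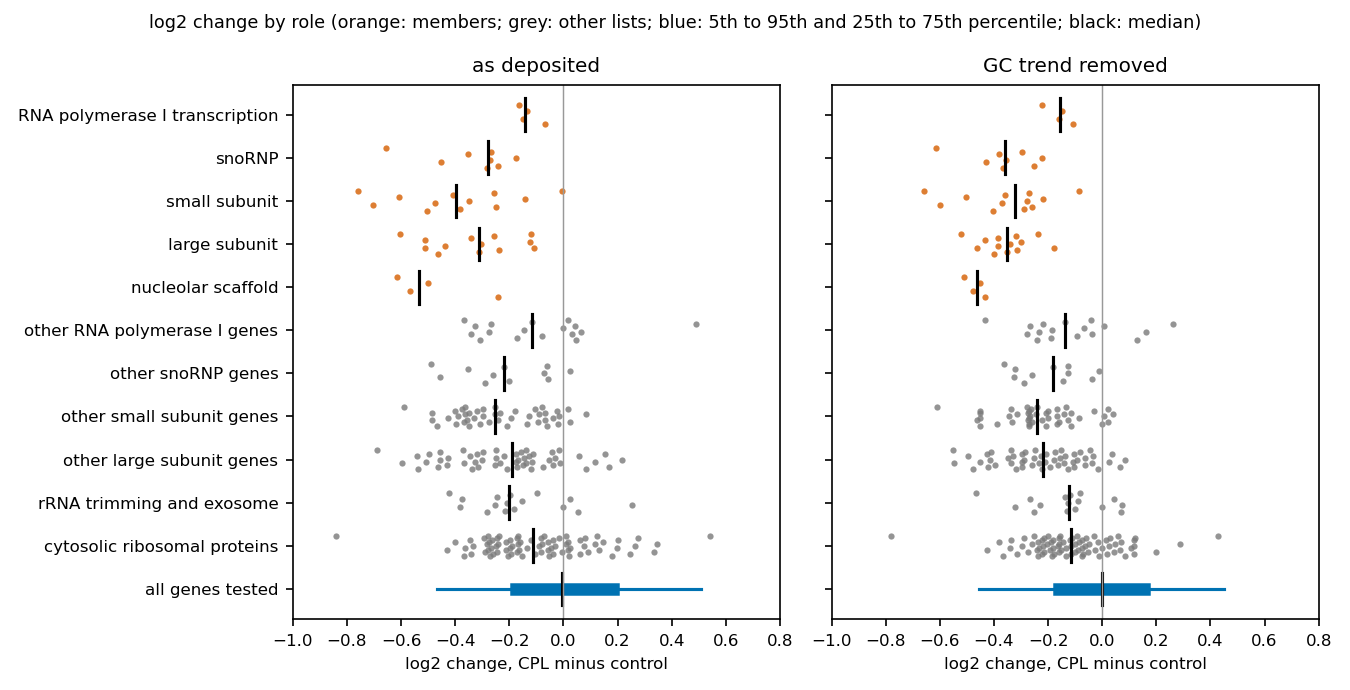
log2 change, CPL minus control, of each tested gene by role, members in orange and other lists in grey, with the median of each list in black and, in blue, the middle range of all tested genes. As deposited (left) and with the GC trend removed (right), the ribosomal proteins have medians of -0.11 and -0.12 and all genes of -0.01 and 0.00. The medians of all 5 member roles lie left of these, with RNA polymerase I transcription the nearest (-0.14 and -0.16).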

How the data were processed

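Poly(A) RNA of 6 SET-2 samples (3 CPL, 3 control) was sequenced as single-end 50-base reads on a DNBSEQ instrument, per the labels' protocols. Titles gave the group and replicate of each sample. The authors deposited 1 table of FPKM for 30735 genes. No header or label names the unit, which was taken from the values: multiplied by exon length in GENCODE 29 and divided by the step of a library, 98.7% to 99.0% of low values (20 reads or fewer) came within 0.1 of a whole read. Per the submitters' processing notes, the build was GRCh38 and the tools were DESeq2 1.4.5, RSEM 1.2.12, HISAT2 2.0.4 and Bowtie2 2.2.5, with no role stated. FPKM is scaled to the library total, so abundant genes can shift all others. No value columns of other samples were present (0).

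The test covered the 13092 genes that reached 1 FPKM in 3 or more libraries, and log2(FPKM + 1) of the deposited values was fitted with limma 3.58.1 in R 4.3.3, with group as the only term, trend and robust moderation, two-sided, Benjamini-Hochberg threshold 0.05. The log2 scale understates the change of low genes. GC content was that of a gene's transcripts. For the GC correction, a loess curve (span 0.5) of each library's deviation from the mean of the 6 libraries on GC was subtracted. Replicate pairs of a group differed beyond counting error (chi-square over degrees of freedom 7.84 to 56.5), so each library counts as 1 sample. Each library's deviations from its own group mean, on values with the GC trend still in, were correlated across genes between CPL and control. These deviations correlated at 0.084, 0.088 and -0.168 for libraries with the same number. For libraries with different numbers they correlated at -0.229 to 0.222. With the GC trend in them, these correlations cannot tell whether the numbers mark pairs. The column names share the numbers between groups, but no label says that they mark pairs. The main fit did not take them as pairs. Members and lists were chosen with earlier results of these data known. Values per library are given for called members, up to 4 per role by lowest p, and for the member of each role with the highest level; from other lists, up to 4 called genes. Alternatives were pseudocounts of 0.1 and 0.01, no filter or at least 5 FPKM, quantile and median-of-ratios scaling, a replicate block, no trend or robust moderation, and each library left out. The fit was tested on simulated data that held no GC trend, so the removal of such a trend was not tested by it. Python 3.11.15, pandas 2.3.3, numpy 2.4.6 and matplotlib 3.10.9 were used.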

Additional observations from a re-analysis of the deposited data

How the results depend on the processing

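Of 899 member values over 22 alternative settings, 743 kept their direction and their side of the threshold, 134 passed it only under the alternative, 15 lost it and 7 changed sign. The count of members called lower, 2 as deposited, was 0 with no filter (30735 genes tested), 4 with at least 5 FPKM, 1 with quantile normalization, 0 with a replicate block, 0 without trend or robust moderation, 25 with the GC trend removed and 16 with the GC trend removed and a replicate block. It was 2 with pseudocounts of 0.1 and 0.01 and with median-of-ratios scaling. Among all tested genes, 87 were called lower as deposited, 4 with no filter and 113 of 7528 with at least 5 FPKM. There were 85 with quantile normalization, 15 with a replicate block and 76 without trend or robust moderation. With the GC trend removed there were 933, and 571 with the block as well. The pseudocounts gave 84 and 87, and median-of-ratios scaling 90. With 1 library left out the count of members called lower ranged from 0 to 19. As deposited it was 12 when CPL replicate 1 was out and 3 when CPL replicate 3 was out. It was 0 when CPL replicate 2 or any 1 control replicate was out, and 11 to 19 with the GC trend removed. All tested genes called lower as deposited then numbered 339, 5 and 73 without CPL replicates 1, 2 and 3. They numbered 1 to 4 without a control replicate, and 411 to 586 with the GC trend removed. A count of 0 members where 1 to 5 genes in all were called says little of the members. The count of members called higher was 0 in every setting. The median log2 change of the members was -0.354 with the GC trend removed, with or without the block, and -0.353 to -0.295 with a library left out. The snoRNP median was -0.359 with the GC trend removed and -0.391 to -0.267 with a library left out, the large subunit median -0.35 and -0.362 to -0.298, the RNA polymerase I median -0.172 to -0.129, the small subunit median -0.535 to -0.298 and the nucleolar scaffold median -0.651 to -0.401 with a library left out. Log2 changes that turned sign were those of NOB1 (0.011 with quantile normalization, 0.001 with median-of-ratios scaling, -0.137 to 0.088 with a library left out), BOP1 (-0.427 to 0.109) and PPAN (-0.424 to 0.049). BOP1 and PPAN turned when CPL replicate 3 was out. The cause was not tested. Depth limits NOP2, at under 50 reads per library.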

Other observations

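Among the trimming enzymes and the RNA exosome, which degrades and trims ribosomal RNA precursors, 16 genes were tested. As deposited 0 were called, and 2 had an unadjusted p under 0.05 in limma, where 19.5% of all tested genes did. With the GC trend removed EXOSC5 and EXOSC8 were called lower (12.5%), where 7.13% of all genes were. In the 6 GC-corrected fits that left out a library, EXOSC5 was called in 4 and EXOSC8 in 1. EXOSC8 had 20.2, 27.5 and 24.7 FPKM in CPL replicates 1, 2 and 3, against 31.5, 32.7 and 33.2 FPKM in the control replicates, with no overlap (log2 change -0.42 as deposited, and -0.32 with the GC trend removed, limma adjusted p = 0.0352).

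Among 17 further RNA polymerase I genes, 0 were called as deposited (4 had an unadjusted p under 0.05, where 19.5% of all tested genes did). With the GC trend removed the polymerase subunits TWISTNB and POLR1E were called lower, and TAF1C, a subunit of the promoter selectivity factor SL1, was called higher. The lower calls make 11.8% of the 17 genes, where 7.13% of all tested genes were called lower and 7.6% higher. None of these calls was firm, as TWISTNB and TAF1C were called in 0 and POLR1E in 1 of the 6 GC-corrected fits that left out a library, and the adjusted p of TAF1C was 0.0661 to 0.126 in them. TAF1C had 8.17, 5.48 and 4.34 FPKM in the CPL replicates, against 3.94, 3.65 and 3.99 FPKM in the control replicates. All CPL libraries of TAF1C were above control, CPL replicate 1 farthest, at a GC content of 62.9% (log2 change 0.49 as deposited, limma adjusted p = 0.224, and 0.26 with the GC trend removed, limma adjusted p = 0.0373).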
